A study of Mus musculus with 8 samples.

Results

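The Toll-like, NOD-like and C-type lectin receptors of the cornea are described here together with the adaptors and effectors that act with them. The 41 genes were taken by symbol from a table of 54532 genes through a GRCm38 annotation, and all 41 symbols were found. The values compare 4 naive corneas of BALB/c mice with 4 naive corneas of C57BL/6N mice, and the study's methods write the first strain as BALB/cN. All corneas came from untreated male mice without a transgene, and the methods give an age range for the parental mice phenotyped but no separate one for those sequenced. The study sequenced corneal RNA of both strains, which differ in their limbal lymphatic vessels, to find genes expressed differently in the parents of an intercross. Nothing states that the 4 corneas of a strain came from 4 mice, so that p-values measure only the spread between these corneas.

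Pattern recognition receptors detect conserved molecules of microbes and of damaged cells. Toll-like receptors sit at the cell surface, where they bind lipoproteins, lipopolysaccharide or flagellin, or in endosomes, where they bind nucleic acids. NOD-like receptors are cytosolic, and several of them assemble inflammasomes with the adaptor ASC and caspase-1. C-type lectin receptors of the groups covered here bind fungal and mycobacterial glycans on myeloid cells. At the ocular surface, epithelial cells as well as resident leukocytes are known to carry such receptors.

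All values are rlog values, which are read numbers on a log2 scale, normalized for library size and pulled towards the mean of the gene. The pull is stronger for weakly expressed genes, so that an rlog difference understates their fold change. The table holds no read counts, and the depth of each cornea is therefore unknown here. Differences are BALB/c minus C57BL/6N. limma was run on the 25402 genes whose rlog mean was not below 0, and genes reaching 0.01 after Benjamini-Hochberg adjustment were called. The standard error (SE) of each difference is the one of this fit.

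Of the 41 genes, 37 reached the mean needed for testing. Clec4e was listed at 0 in every cornea, and Tlr11, Nlrp1a and Nlrp10 had means below 0. The strains differed in 8 of the 37 genes tested, against 5.74% of all genes tested. Tlr6, Tlr1, Tlr3 and Unc93b1 were higher in BALB/c, against 2.83% of all genes called in this direction, and Tlr5, Pycard, Nlrp1b and Naip1 were lower, against 2.91%. In 13 of the 37 genes the corneas of the strains did not overlap, which held for 18.3% of all genes tested. For each of these 13 genes, the 8 called among them, the exact permutation test (2-sided) gave p = 0.0286. This is the smallest value that 4 against 4 corneas allow, and any gene without overlap reaches it, so it adds no support to the calls. The median difference of the 37 genes was 0.03, beside 0.01 over all genes tested. No call remained when p-values were recalibrated to an empirical null distribution. There the smallest adjusted p-value of a member from limma was 0.223, and 8 of the members and 1725 of all genes had an unadjusted p-value under 0.05. The study also recalibrated its p-values before adjustment, with fdrtool, and still called genes. Those p-values came from DESeq2 on read counts, so the 2 recalibrations are not alike. Without BALB/c replicate 2 and C57BL/6N replicates 3 and 4, or without BALB/c replicates 1 and 4, 5 members were called, against 3.35% and 1.76% of all genes tested, a choice made after seeing the data.

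**Figure D1:**
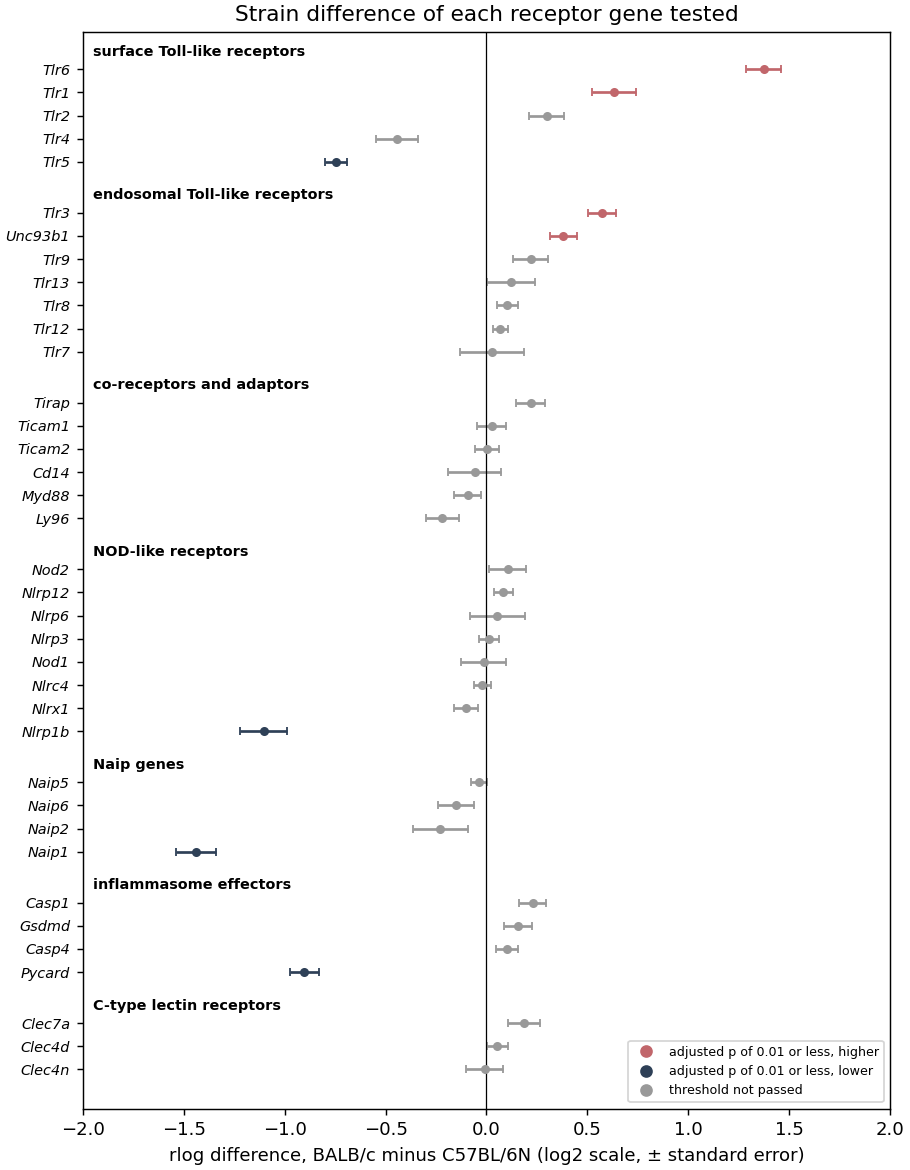
Strain difference of the 37 receptor, adaptor and effector genes tested, grouped by role, as rlog difference (BALB/c minus C57BL/6N, log2 scale) with its standard error from limma. Coloured points passed an adjusted p of 0.01, with 4 genes to the right and 4 to the left of zero, and grey points did not pass.

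Markers of the layers and cells of the cornea and of tissues around it varied between corneas to different degrees. Markers of corneal epithelium such as Krt12 and Aldh3a1 were abundant in all corneas, with list means between 16.9 and 17.1. The mean of 7 keratocyte genes was low in BALB/c replicate 2 (10.4) and C57BL/6N replicates 3 and 4 (9.94 and 9.86), and between 12.1 and 13.0 in the other corneas, and none of the 7 was called. The mean of 16 leukocyte and macrophage markers lay between 5.60 and 6.10 in BALB/c and between 5.43 and 6.01 in C57BL/6N, and none of them was called. Of 7 neutrophil markers, 6 were listed at 0 and none was tested. None of the 2 tested of 5 markers of dendritic and Langerhans cells, of the 2 tested of 6 of lymphocytes, of the 3 tested of 4 of mast cells, of the 2 tested of 3 of red blood cells, of 4 of corneal endothelium or of 4 of vascular and lymphatic endothelium was called. All 4 genes listed as conjunctival markers (Krt13, Krt4, Krt19 and Muc4) were lower in BALB/c, with list means from 10.8 to 11.0 against 12.0 to 12.3. Muc4, which raises these means, lay between 19.14 and 19.95, near the epithelial gene Krt12 (19.60 to 19.85). It therefore cannot be read as a marker of conjunctiva alone. Lens transcripts were high in BALB/c replicates 1 and 4 (list means 7.80 and 7.07, against 4.90 to 5.63 in the other corneas), as were pigment cell transcripts (11.0 and 11.9, against 6.61 to 9.21), and none of the 5 lens or 4 pigment cell genes was called. The part of these tissues in the results below was not tested except where a value is given. In bulk corneas, fewer cells of a type and less RNA per cell cannot be told apart.

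Levels can be compared between genes only per length. The level, 2 to the power of the mean rlog value divided by the exon length in kilobases, exceeded 100 in 11 of the genes. Unc93b1, the chaperone that carries nucleic acid receptors to endosomes, was highest with 504 per kilobase. It was followed by Nod1, a sensor of bacterial peptidoglycan (345), by the Toll-like receptor adaptors Ticam1 (333), Tirap (325) and Myd88 (309), and by Pycard (333), which encodes ASC. Among the receptors themselves, Nod1 was followed by the flagellin receptor Tlr5 (281), the mitochondrial family member Nlrx1 (234) and the double-stranded RNA receptor Tlr3 (185). Ly96, the lipopolysaccharide-binding partner of TLR4, reached 226 and the pore-forming effector Gsdmd 209.

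A further 9 genes lay between 10 and 100 per kilobase, among them Tlr2 (78.6), Tlr4 (76.4), Naip1 (61.7) and the lipopolysaccharide co-receptor Cd14 (43.3). The remaining genes lay lower still. Nlrp3, the best known inflammasome sensor, reached 0.98 per kilobase, Casp4 0.98 and Nlrc4 0.86. Casp1, which encodes the caspase of the inflammasome, reached 4.35. The C-type lectin receptors Clec7a (4.03), Clec4n (3.23) and Clec4d (1.98) were all low, as were Tlr7 (3.63) and Tlr8 (1.17). Because rlog values are approximate for such low genes, their order among themselves is uncertain.

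**Figure D2:**
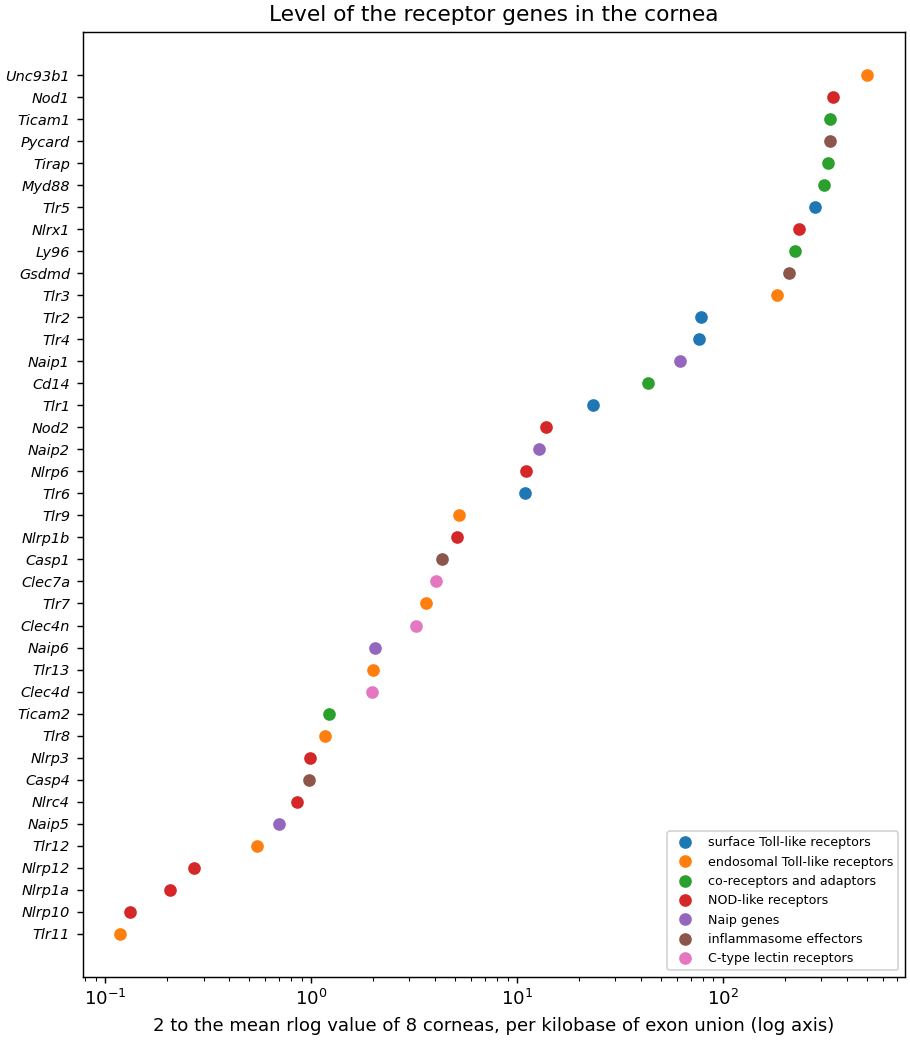
Level of 40 receptor, adaptor and effector genes in the cornea, as 2 to the mean rlog value over 8 corneas per kilobase of exon union, on a log axis. Colours give the role of the gene, and Clec4e, listed at 0 in every cornea, is left out. Unc93b1 is highest (504), and 11 genes lie above 100.

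Among the surface Toll-like receptors, 2 genes rose, 1 fell and 2 were not called. Tlr6, whose product pairs with TLR2 to bind diacylated lipoproteins, had rlog values of 6.00, 5.99, 6.03 and 6.12 in the BALB/c corneas. In the C57BL/6N corneas the values of Tlr6 were 4.63, 4.83, 4.65 and 4.55. All BALB/c corneas lay far above all C57BL/6N corneas. The means were 6.04 ± 0.058 and 4.67 ± 0.12 (SD, n = 4 corneas each), a difference of 1.37 (SE 0.0876 and, by limma, adjusted p = 9.80e-06). On the linear scale this is 2.59-fold. Leaving out any cornea gave differences of Tlr6 from 1.33 to 1.43.

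Tlr1, whose product pairs with TLR2 to bind triacylated lipoproteins, had rlog values of 6.39, 6.62, 6.73 and 6.69 in BALB/c. Its values were 6.01, 5.78, 6.11 and 6.01 in C57BL/6N. The corneas of the strains were again separated, but by a smaller gap. The difference was 0.63 (SE 0.108 and, by limma, adjusted p = 0.00464). Tlr1 was not called after each cornea was centred on its median (adjusted p = 0.0273 in limma), nor in 6 of the 8 fits that left out a cornea, where the highest adjusted p-value of limma was 0.0187 without BALB/c replicate 3. Over all alternatives but the empirical null it ran from 0.00139 to 0.0331.

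Both genes lie on the minus strand of chromosome 5 (GRCm38), Tlr1 (ENSMUSG00000044827) from 64924679 to 64933563 and Tlr6 (ENSMUSG00000051498) from 64952031 to 64960097, with 18.5 kb between them. Part of their coding sequence is the same. Of the different stretches of 100 bases in its transcripts, 7.09% for Tlr6 and 7.89% for Tlr1 occur in the other gene as well, and how reads that fit both genes were counted is not given in the sources used here. The longest identical run is 229 bases. Its last 60 bases and the 60 coding bases after it are shown for both genes. A single read that lies within them, taken without its mate, can tell the genes apart only by the bases in capitals. These differ in 2 of the last 60 positions (GENCODE transcripts, GRCm38, minus strand, 64925477 to 64925596 in Tlr1 and 64953768 to 64953887 in Tlr6).
Tlr1: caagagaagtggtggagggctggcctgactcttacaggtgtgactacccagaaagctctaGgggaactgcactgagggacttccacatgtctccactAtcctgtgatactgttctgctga
Tlr6: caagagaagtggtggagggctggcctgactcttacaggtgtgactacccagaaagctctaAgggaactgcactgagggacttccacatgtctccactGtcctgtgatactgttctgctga

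Within a cornea, the rlog value of Tlr6 minus that of Tlr1 was between -0.70 and -0.38 in BALB/c and between -1.46 and -0.95 in C57BL/6N. The means of this gap differed by 0.74 between the strains, a value given as a description, since the pair was chosen after both genes were seen to differ.

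The 250 bases before each start site were searched on both strands for the core of the interferon-stimulated response element, read as GAAA, any 2 bases and GAAA, and for a kappaB site, read as GGGA, any base and TTTCC. The first was found in 2.98% of 32851 promoter windows of RefSeq (GRCm38.p6). Of the 41 genes, 32 had a window, with 41 windows between them. This motif lay in 3 of these 41 windows, those of Tlr6, Myd88 and Tlr11. The kappaB site was found in 0.356% of all windows and, among the members, in 1 window, of Tlr3. Of the 8 genes called, 7 had a window, and Tlr6 was the one with the interferon motif, with 2 overlapping matches on the opposite strand at one of its listed start sites. The sequence is shown because Tlr6 was the member with the largest increase. It covers bases 156 to 61 before that start on chr5:64959227-64959322 (minus strand), which lies in the first intron of the GENCODE transcript, and the matches are in capitals.
Tlr6: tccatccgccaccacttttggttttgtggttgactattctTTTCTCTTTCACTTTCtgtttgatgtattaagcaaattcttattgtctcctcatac

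Tlr5 moved the other way. It encodes the receptor for bacterial flagellin and lies on the plus strand of chromosome 1 from 182954788 to 182976044 (ENSMUSG00000079164). Its rlog values were 9.95, 10.07, 10.07 and 9.99 in BALB/c and 10.82, 10.72, 10.73 and 10.80 in C57BL/6N. Both strains were tight, with standard deviations of 0.0598 and 0.0494 (n = 4 each). Tlr5 fell by 0.75 rlog units (SE 0.0546 and, by limma, adjusted p = 2.29e-05), and leaving out any cornea gave differences from -0.76 to -0.72.

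Tlr2, the shared partner of TLR1 and TLR6, and Tlr4, the lipopolysaccharide receptor, were separated by strain but not called. Tlr2 had values of 7.91, 8.07, 8.01 and 8.16 in BALB/c and 7.72, 7.74, 7.89 and 7.60 in C57BL/6N, a difference of 0.30 (SE 0.0874 and, by limma, adjusted p = 0.0600). Tlr4 had values of 8.77, 8.26, 8.55 and 8.45 in BALB/c and 8.93, 8.90, 9.0 and 8.98 in C57BL/6N, a difference of -0.44 (SE 0.102 and, by limma, adjusted p = 0.0218). The BALB/c corneas were the more scattered ones for Tlr4. Without BALB/c replicate 1, the cornea nearest to C57BL/6N, Tlr4 passed the threshold with a difference of -0.53 and an adjusted p-value of 0.00741 from limma. With all corneas and the mean of the keratocyte genes as a covariate, Tlr4 passed as well (-0.46 and, by limma, adjusted p = 0.00930). The alternatives other than the empirical null gave 0.00741 to 0.124.

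**Figure D3:**
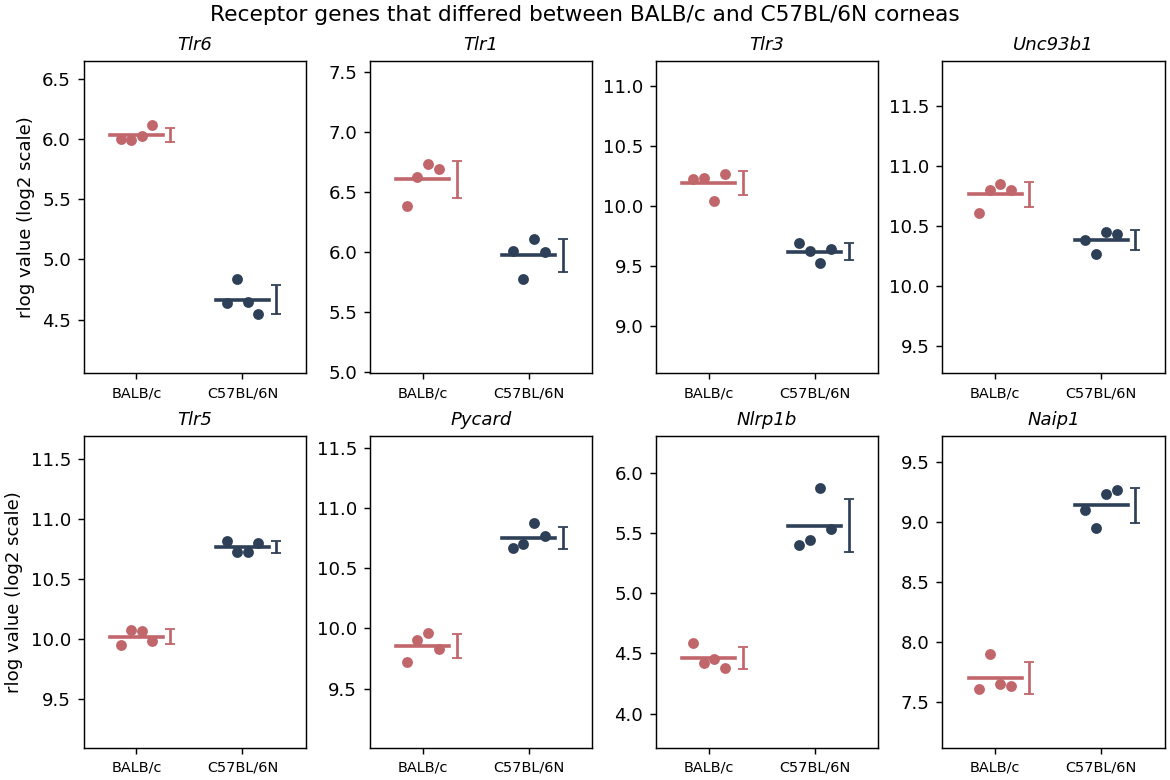
Rlog values (log2 scale) of the 8 genes called, by cornea, with the mean as a horizontal line and the SD (n = 4) as a bar beside it. Each panel spans the same range of values. Tlr6, Tlr1, Tlr3 and Unc93b1 lie higher in all BALB/c corneas and Tlr5, Pycard, Nlrp1b and Naip1 lie lower.

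Of the endosomal receptors and their chaperone, 7 of 8 genes were tested and 2 rose. Tlr3 (ENSMUSG00000031639, minus strand of chromosome 8, 45395665 to 45411080) had rlog values of 10.23, 10.23, 10.05 and 10.27 in BALB/c. In C57BL/6N the values of Tlr3 were 9.70, 9.63, 9.53 and 9.64. The groups did not overlap, and the difference was 0.57 (SE 0.0679 and, by limma, adjusted p = 0.000548), or 1.49-fold. Tlr3 kept its call with each cornea left out, but not among the corneas high in stromal transcripts (limma, adjusted p = 0.0143) or those low in lens transcripts (limma, adjusted p = 0.0215), with a range over the alternatives other than the empirical null of 0.000182 to 0.0215.

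Unc93b1 (ENSMUSG00000036908, plus strand of chromosome 19, 3935186 to 3949340) had values of 10.61, 10.80, 10.85 and 10.80 in BALB/c and of 10.39, 10.27, 10.45 and 10.43 in C57BL/6N. Its difference of 0.38 was the smallest among the genes called (SE 0.0684 and, by limma, adjusted p = 0.00606). It was not called after each cornea was centred on its median (limma, adjusted p = 0.166), nor in 7 of the 8 fits that left out a cornea, where it reached 0.0243 without BALB/c replicate 3, and the alternatives other than the empirical null gave 0.000936 to 0.166.

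The other endosomal receptors were weakly expressed and none was called. Tlr9, the receptor for unmethylated CpG DNA, lay between 4.18 and 4.40 in BALB/c and between 3.96 and 4.18 in C57BL/6N, a difference of 0.22 with strains that touched without overlapping (limma, adjusted p = 0.166). Tlr7 and Tlr8, receptors for single-stranded RNA that neighbour each other on chromosome X, differed by 0.03 (SE 0.159) and 0.10 (SE 0.0538). Tlr13, a receptor for bacterial ribosomal RNA, differed by 0.12 (SE 0.119) and Tlr12, a receptor for profilin of protozoa, by 0.07 (SE 0.0361).

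None of the 6 co-receptors and adaptors was called. Myd88, the adaptor of nearly all Toll-like receptors, had rlog values from 9.49 to 9.72 in BALB/c and from 9.66 to 9.75 in C57BL/6N, a difference of -0.09 (SE 0.0684 and, by limma, adjusted p = 0.458). Ticam1, the adaptor of TLR3 known as TRIF, differed by 0.03 (SE 0.0726). Neither gene separated the strains. Tirap, which bridges TLR2 and TLR4 to MyD88, lay between 10.69 and 10.86 in BALB/c and between 10.38 and 10.66 in C57BL/6N, a difference of 0.22 (limma, adjusted p = 0.0877). Ly96 differed by -0.22 (SE 0.0811), Cd14 by -0.06 (SE 0.129) and Ticam2 by less than 0.01 (SE 0.0615), where Ticam2 shares 14.5% of its exon bases with Tmed7 on the same strand. Exons of other genes on the opposite strand cover 11.3% of the exon bases of Myd88 (Acaa1a), 11.9% of those of Nlrx1 (Gm10686) and 7.32% of those of Tlr3 (Gm45542, whose own difference was -0.08).

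Among the cytosolic receptors, Nlrp1b fell and the other 7 NOD-like receptors tested were not called. Nlrp1b (ENSMUSG00000070390, minus strand of chromosome 11, 71153102 to 71230733) encodes the sensor of anthrax lethal factor protease and is known for its variation among inbred strains. It had rlog values of 4.59, 4.42, 4.46 and 4.38 in BALB/c and of 5.41, 5.44, 5.88 and 5.53 in C57BL/6N. All BALB/c corneas were lower than all C57BL/6N corneas, among which replicate 3 was the highest. Nlrp1b fell by 1.10 rlog units (SE 0.116 and, by limma, adjusted p = 0.000249). In the transcripts of the reference genome, the gene shares almost no stretch of 100 bases with other genes (0.048% of them, all with Nlrp1a). How well BALB/c reads map to Nlrp1b, and its number of copies in each strain, were not tested.

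Nod1 had means of 10.77 ± 0.133 in BALB/c and 10.78 ± 0.218 in C57BL/6N (SD, n = 4 each) and a difference of -0.01 (SE 0.111). Nod2, the sensor of muramyl dipeptide, differed by 0.11 (SE 0.0918), Nlrx1 by -0.10 (SE 0.0582) and Nlrp6, an epithelial family member, by 0.05 (SE 0.136). None of these 4 genes separated the strains. For Nlrp3, which lay between 1.94 and 2.13 in all corneas, the difference was 0.01 (SE 0.0496) and its sign changed with median centring (-0.06) and with a covariate for keratocyte or leukocyte genes. Nlrc4 differed by -0.02 (SE 0.0412) and Nlrp12 by 0.08 (SE 0.0478), and neither was called. Like Nlrp3, both were weakly expressed, where an rlog difference understates the fold change. The smallest change that the fit could call at this level was not determined.

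The Naip genes encode receptors that bring flagellin and parts of bacterial secretion systems to NLRC4. Of the 4 genes, which lie together on chromosome 13, Naip1 fell and the others were not called. Naip1 (ENSMUSG00000021640, minus strand, 100407764 to 100452869), a sensor of the needle protein of type III secretion systems, had rlog values of 7.61, 7.90, 7.65 and 7.63 in BALB/c. In C57BL/6N the values of Naip1 were 9.10, 8.95, 9.23 and 9.27. The gap between the strains was many times the spread within them. Naip1 fell by 1.44 (SE 0.0967 and, by limma, adjusted p = 1.40e-05), the largest difference among the members, and leaving out any cornea gave differences from -1.51 to -1.40.

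The neighbours of Naip1 differed by -0.23 (Naip2, SE 0.136), -0.15 (Naip6, SE 0.0893) and -0.04 (Naip5, SE 0.0391). Sequence is shared in this family. Of the different stretches of 100 bases of Naip1, 13.0% occur in other transcripts, foremost in the pseudogene Naip3, which had rlog values between -1.38 and -1.33 in all corneas. The share was 16.2% for Naip5, 6.26% for Naip6 and 4.44% for Naip2, so that these values are less certain. Mapping of BALB/c reads to the Naip genes and their number of copies in each strain were not tested either.

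Of the inflammasome effectors, Pycard fell and Casp1, Casp4 and Gsdmd were not called. Pycard (ENSMUSG00000030793, minus strand of chromosome 7, 127989708 to 127993867) had rlog values of 9.72, 9.90, 9.96 and 9.83 in BALB/c and of 10.67, 10.71, 10.88 and 10.77 in C57BL/6N. The strains were separated completely. Pycard fell by 0.90 rlog units (SE 0.0713 and, by limma, adjusted p = 3.82e-05), which is 1.87-fold. A gene on the opposite strand, Gm45205, covers 12.8% of the exon bases of Pycard, and its own difference was 0.11 (limma, adjusted p = 0.698). Libraries were strand-specific, but whether counting used the strand is not given in the sources used here.

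Casp1 lay at 2.96, 2.71, 2.91 and 2.69 in BALB/c and at 2.57, 2.63, 2.57 and 2.57 in C57BL/6N. The strains did not overlap, but the level was low and the difference of 0.23 was not called (limma, adjusted p = 0.0618). Gsdmd differed by 0.16 (SE 0.0705) and Casp4, the caspase that binds lipopolysaccharide, by 0.10 (SE 0.0545). The C-type lectin receptors gave no call. Clec7a, the receptor for fungal beta-glucan known as Dectin-1, differed by 0.19 (SE 0.0809), Clec4d by 0.05 (SE 0.0519) and Clec4n, which encodes Dectin-2, by -0.01 (SE 0.0926). The annotation lists Clec7a as a polymorphic pseudogene, and whether it is coding in each strain was not tested.

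The genes listed as conjunctival markers fell in BALB/c together with Tlr5, Pycard, Nlrp1b and Naip1, and a part of conjunctiva in these decreases was not tested. In the fit with the mean of the keratocyte genes as a covariate the differences were -0.74 for Tlr5, -0.87 for Pycard, -1.07 for Nlrp1b and -1.38 for Naip1. With the mean of the leukocyte and macrophage markers as a covariate they were -0.73, -0.86, -1.05 and -1.35. The increases of Tlr6 (1.35 and 1.33), Tlr1 (0.66 and 0.68), Tlr3 (0.56 and 0.55) and Unc93b1 (0.41 and 0.42) were likewise close to those without a covariate, and all 8 genes were called in both fits. Both covariates overlapped between the strains. The mean of the conjunctival genes, which separated the strains, was not fitted, so these fits do not bear on it. Tlr4 was also called in the fit with the keratocyte mean (-0.46).

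Tlr7 and Nod1 varied with the keratocyte genes. In a fit with strain and the keratocyte mean, chosen after seeing the data, 2 of the 37 genes (5.41%) had a slope on the keratocyte mean that passed the same threshold in limma, against 6.53% of all genes tested, so that the share was no larger than that of all genes. Tlr7 had a positive slope of 0.169 (SE 0.0307, adjusted p = 0.00459). It was lowest in BALB/c replicate 2 (3.59) and C57BL/6N replicates 3 and 4 (3.61 and 3.67), the corneas with the lowest keratocyte mean, and lay between 3.84 and 4.18 in the others. The leukocyte and macrophage markers were lowest in the same corneas, with 6 of 16 having a slope past the threshold. Nod1 had a negative slope of -0.111 (SE 0.0226, adjusted p = 0.00876) and was highest in these corneas, with 10.95, 10.99 and 10.92. The slopes of Naip1 (-0.0871, SE 0.0250, adjusted p = 0.0445 in limma), Tlr9 (0.0736, adjusted p = 0.109) and Tlr13 (0.0917, adjusted p = 0.128) did not pass.

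**Figure D4:**
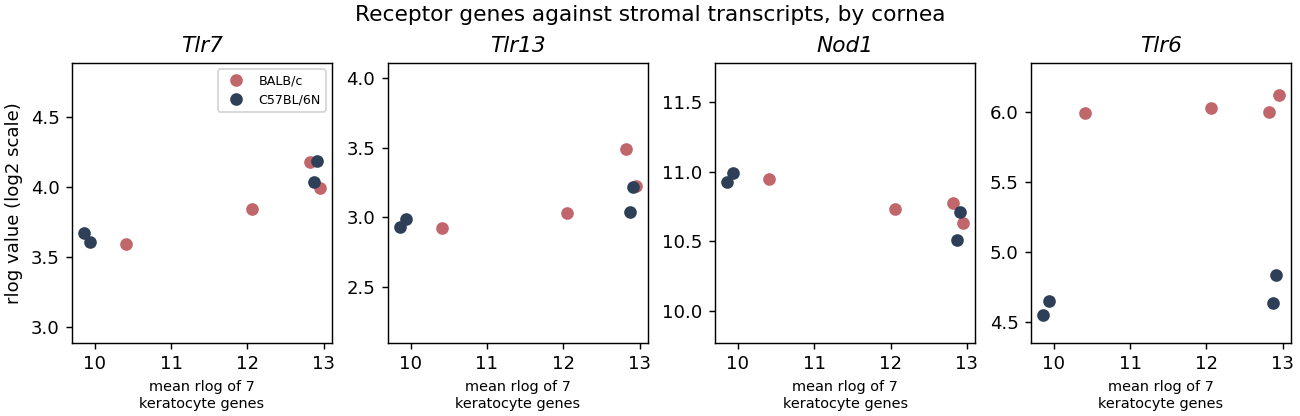
Rlog values (log2 scale) of Tlr7, Tlr13, Nod1 and Tlr6 against the mean rlog value of 7 keratocyte genes, 1 point per cornea and the same vertical span in each panel. Tlr7 is lowest and Nod1 highest in the 3 corneas on the left, while Tlr6 separates the strains at either end.

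Of 49 further genes of the signalling pathways, all were tested and 2 were called (4.08%, against 5.74% of all genes tested), both higher in BALB/c. Irf7, the transcription factor through which endosomal receptors induce type I interferon, had values of 12.80, 12.76, 12.51 and 12.90 in BALB/c and of 10.76, 10.67, 10.89 and 10.92 in C57BL/6N. Its difference of 1.93 (SE 0.0903 and, by limma, adjusted p = 1.31e-06) exceeded that of any receptor. Irak3, a negative regulator of MyD88 signalling, differed by 0.55 (SE 0.105 and, by limma, adjusted p = 0.00864) and lost its call with any cornea left out, with an adjusted p-value of up to 0.0309 without BALB/c replicate 4 and from 0.00359 to 0.0704 over the alternatives other than the empirical null. At the looser threshold of 0.05, 7 of the 49 genes passed in limma, beside 2842 of all 25402 genes tested. The strains did not overlap in 15 of the 49 genes (30.6%), beside 18.3% of all genes tested. The 47 genes other than Irf7 and Irak3 were not called, and 5 of them had an adjusted p-value of 0.05 or less in limma with strains that did not overlap. These were the kinases Map3k7, known as TAK1 (difference 0.23, adjusted p = 0.0124), Irak4 (-0.29, adjusted p = 0.0226) and Ripk1 (-0.19, adjusted p = 0.0451), the NF-kappaB subunit Nfkb2 (0.21, adjusted p = 0.0426) and Il18, a substrate of caspase-1 (-0.39, adjusted p = 0.0452).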

How the data were processed

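Strand-specific total RNA libraries of 4 BALB/c and 4 C57BL/6N corneas were read from both ends for 100 bases. Per the methods, the authors trimmed adapters, discarded matches to rRNA and tRNA, aligned to pseudo-genomes of each strain built from GRCm38 (TopHat2 2.1.1), counted reads on exon unions of Ensembl genes (HTSeq 0.7.1) and deposited the values after the rlog transformation (log2 scale) by DESeq2 1.30; tool versions follow the submitters' processing notes. Columns were mapped by the sample titles, and 0 were left unused.

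Differences between strains were fitted by limma 3.58.1 in R 4.3.3 (both strains, no covariate, variance trend) and single values with exact permutation tests (scipy 1.17.1). On simulated data of 25402 genes with 200 changed, 96 of 100 changes of 1 and 100 of 100 changes of 2 log2 units were called, with 1 false call. The changed genes were drawn only from those with a small spread, and the noise was normal and independent between genes. Smaller changes and variation shared between genes were not simulated, so these shares need not hold for the real corneas. Positions, exon lengths and shared stretches came from GENCODE M21, promoter windows from RefSeq. Plots used matplotlib 3.10.9.

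The members and lists were chosen with earlier results of these data known. All members were named by role, called genes with every cornea, and others where the adjusted p-value was 0.05 or less, where strains did not overlap or where a reader would look for them; of the pathway list, the genes called were named, as were, by a choice made after seeing the values, the 5 others that reached 0.05 after adjustment. How multi-mapping reads were counted, and whether counting used the strand, is not given in the sources used here. Alternatives were median centring, quantile normalization, other filters, an adjusted p-value of 0.05, an empirical null, covariates, a replicate block and leaving out each cornea. The corneas low in stromal or high in lens transcripts and the keratocyte slope, as well as the searches for shared stretches and motifs and the gap between Tlr6 and Tlr1, were chosen after seeing the data.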

Additional observations from a re-analysis of the deposited data

Results flagged for a closer look

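For each of the 37 genes tested and each strain, the highest and lowest of the 4 corneas were compared with the rest, and 7 of 74 such groups held an outlying cornea by the criterion of Dixon, where chance gives about 1 in 20 groups, or 3.7. The gap to the nearest cornea made up 0.865 of the range for Naip1 in BALB/c, where replicate 2 (7.90) stood above the next cornea (7.65). It was 0.905 for Myd88 in C57BL/6N (replicate 3 at 9.75, next 9.66) and 0.834 for Ticam1 in BALB/c (replicate 1 at 9.86, the lowest). For weakly expressed genes it was 0.968 for Nlrp3, 0.868 for Nlrc4 and 0.938 for Casp1, each with C57BL/6N replicate 2 on top (2.13, 2.13 and 2.63), and 0.937 for Clec4n with C57BL/6N replicate 1 on top (2.48).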

How the results depend on the processing

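Of 286 comparisons of 16 named genes with an alternative, 237 kept direction and side of the threshold, 40 lost the call, 2 gained it and 7 changed sign, all of the last for Nlrp3. Apart from the empirical null and the fits to a part of the corneas chosen after seeing the data, 6 members (Tlr6, Tlr3, Tlr5, Pycard, Nlrp1b and Naip1) kept their call in all 17 alternatives. The empirical null (standard deviation 1.67) gave 0 genes, 0 members (0 higher, 0 lower) and 0 pathway genes, for a cause that was not tested. With median centring, 958 genes were called (413 higher, 545 lower, against 718 and 740) and 2 members were higher, and the median of all differences moved from 0.01 to -0.07; the sign of Nlrp3 turned with it (-0.060) and with the keratocyte (-0.0015) or leukocyte and macrophage (-0.010) covariate. The replicate block called 554 genes and 2 members as higher; deviations of corneas with one number correlated at 0.31, -0.53, -0.20 and -0.45, and 1 of 8 corneas correlated best with the cornea of its own number, so the numbers were not taken to pair the corneas. The keratocyte covariate called 2391 genes, and an adjusted p of 0.05 called 2842 by construction. Pathway genes called were 1 without a filter, with median centring, quantile normalization or the block, 5 and 4 with the keratocyte or the leukocyte and macrophage covariate, and 7 at 0.05. Among corneas high in stromal or low in lens transcripts, with fewer corneas, 852 and 447 genes and 5 members in each were called, and Tlr3 was not among them. With each cornea left out, from 953 to 1163 genes, from 6 to 9 members, from 2 to 4 higher, from 4 to 5 lower and 1 pathway gene were called, and the difference of Nlrp3 ran from -0.0034 to 0.061. Without counts, depth cannot be used to weigh low values.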
